A study of Mus musculus with 12 samples.

Results

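The 37 genes described here encode enzymes, transporters and regulators of glycolysis together with genes known to be induced by low oxygen. They were taken by symbol from a list, and all 37 were found among the 24421 gene symbols of the count table and passed the filter on low counts, which 15246 symbols passed. They comprise 2 transporters of glucose and lactate, 15 glycolytic enzymes, 4 regulators of glycolytic flux and glycogen, 2 oxygen-sensing hydroxylases, 3 enzymes of collagen hydroxylation and oxidative protein folding, 3 mitochondrial and cell death genes and 8 other hypoxia response genes.

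RNA was measured by bulk sequencing of fetal lungs of wild-type CD-1 mice, taken at embryonic day 12.5 and grown as explants in Matrigel where air meets medium. A day after isolation, at Day 0, 4 libraries were collected without further treatment. For 2 days the other lungs stayed in a 20% solution of PEG-HCC, a coumarin-conjugated 8-arm polyethylene glycol. In 4 Day 2 control libraries it was left liquid, and in 4 Day 2 compression libraries a two-photon laser crosslinked it around the lung. Every group was thus an explant in culture, with no blood flow and no animal around it, and no group was sampled directly from the embryo. The sources used here give no oxygen level for the culture. Nor do the labels state that the libraries within a group are different animals, and p-values measure only the spread between these libraries, which may be technical. The labels number compression replicates 2 and 3 alike (13, with the letters A and B).

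Cells sense oxygen through the hypoxia-inducible factors (HIF), transcription factors whose alpha subunits are hydroxylated on prolines by EGLN enzymes when oxygen is present and are then degraded. When oxygen falls, the alpha subunits persist, pair with ARNT and bind a short DNA core in promoters and enhancers of target genes. Among those targets are most glycolytic enzymes, the glucose transporter GLUT1, pyruvate dehydrogenase kinase, which keeps pyruvate out of mitochondria, and feedback inhibitors such as EGLN3. Fetal organs develop at low oxygen, and in lung explants the pathway is known to bear on branching and on vessel growth through VEGF. Many of these genes also answer to growth factors, MYC or the integrated stress response.

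The promoters of the list were searched for the core of the HIF motif, as a description of sequence and not of binding. RefSeq promoters (build GRCm38.p6, 250 bases before to 50 after each start) were matched for 36 of 37 genes, 35 by symbol and Ero1l by its other symbol, Ero1a. The letters ACGTG or GCGTG, on either strand, occurred in at least 1 promoter of 32 of the 36 genes (88.9%). The same letters occurred in 65.7% of 11404 genes tested here that had a promoter of that length, and in 46.7% of all 27025 genes. ACGTG alone was found for 69.4% of the listed genes and for 28.3% of tested genes, and GCGTG alone for 66.7% and 54.3%. Gpi1, Tpi1, Gbe1 and Vldlr had neither in these windows. Stretches before a RefSeq start are printed so that the presence of the core in genes that moved in opposite directions can be seen. They are those of the 3 genes that rose at least 2-fold from Day 0 to Day 2 (Car9, Aldoc, Vldlr). Stretches of the 3 genes that were lower on Day 2 in both arms (Hk2, Pfkfb3, Ankrd37) are printed too. Each runs 5′ to 3′ on the gene's strand, and capitals mark ACGTG or GCGTG or the reverse complement of either, which can overlap. Hk2, Pfkfb3, Ankrd37 and Vldlr are shown over 200 bases and Car9 and Aldoc over 30 bases around the match, because more than 30 bases of their 200 (60 and 105) are exon in the GENCODE annotation, whose genes start further upstream than these RefSeq starts. All 30 bases shown for Car9 and for Aldoc are annotated exon, as are 11 of those shown for Pfkfb3 and 17 for Ankrd37.
Car9, chr4:43506995-43507024, plus strand: cctatttccgatgCACGTacagcccgtcca
Aldoc, chr11:78323010-78323039, plus strand: tccacctctgaggGCGTGgccttaccctag
Vldlr, chr19:27216284-27216483, plus strand: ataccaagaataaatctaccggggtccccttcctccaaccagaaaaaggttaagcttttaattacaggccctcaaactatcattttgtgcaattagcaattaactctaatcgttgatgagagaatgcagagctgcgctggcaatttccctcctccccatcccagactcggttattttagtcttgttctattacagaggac
Hk2, chr6:82774455-82774654, minus strand: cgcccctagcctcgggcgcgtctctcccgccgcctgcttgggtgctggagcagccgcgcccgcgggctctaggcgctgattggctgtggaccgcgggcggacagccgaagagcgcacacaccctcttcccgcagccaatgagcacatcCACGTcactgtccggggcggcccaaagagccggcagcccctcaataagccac
Pfkfb3, chr2:11502091-11502290, minus strand: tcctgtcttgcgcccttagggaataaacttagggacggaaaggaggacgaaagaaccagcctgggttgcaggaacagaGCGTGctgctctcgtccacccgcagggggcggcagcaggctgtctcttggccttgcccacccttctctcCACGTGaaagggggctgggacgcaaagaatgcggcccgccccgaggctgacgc
Ankrd37, chr8:45999851-46000050, minus strand: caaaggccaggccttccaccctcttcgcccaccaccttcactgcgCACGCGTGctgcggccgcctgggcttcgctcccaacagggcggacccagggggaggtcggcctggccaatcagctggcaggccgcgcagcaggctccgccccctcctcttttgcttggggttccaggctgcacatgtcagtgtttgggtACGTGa

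Counting back from the RefSeq start, the match within the stretch shown began at position -18 in Car9, -50 in Aldoc and -52 in Hk2. Pfkfb3 held overlapping matches at -53 and -52 and another at -122, and Ankrd37 held overlapping matches at -155 and -152 and another at -6. Outside the stretches shown, the same promoters held more matches, at -226 in Hk2, -241 in Ankrd37, 11 and 27 in Aldoc and 37 in Pfkfb3. Where RefSeq lists several starts, the one with most matches is shown, or the first listed where they are equal. Vldlr, 1 of the 3 genes with a rise of at least 2-fold, had no match in this window, and all 3 genes that fell in both arms had at least 1. Such letters occurred in a promoter of 65.7% of the genes tested here. So few genes, picked by their change, therefore tell nothing about the letters and the direction of change. In the GENCODE annotation of GRCm38 the whole genes lie at chr4:43506966-43513729 (Car9), chr11:78322968-78327781 (Aldoc), chr19:27216484-27254231 (Vldlr), chr6:82725025-82774454 (Hk2), chr2:11471433-11554077 (Pfkfb3) and chr8:45996902-46005707 (Ankrd37). Nothing about the binding of a factor follows from these letters.

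Total counts ranged from 13979871 to 33249761 per library. At these depths 1 member, Eno1, had fewer than 20 counts in every library (4 to 19). The near-identical intronless copy Eno1b, which was looked up after the values of Eno1 had been seen, held 880 to 2464 counts per library, so the Eno1 values are uncertain. Exons of 5 members overlap an opposite-strand gene over more than 10% of their length (Ankrd37, Bnip3, Fam162a, Gpi1, Higd1a) and of 2 with a gene model on the same strand (Pfkm, Pkm), and the sources used here do not state whether counting used strand. Lung epithelial and mesenchymal markers were present in all libraries. Control replicate 4 stood apart in liver markers, with a summed level of 1968 CPM (counts scaled to library size with TMM factors) against 62.8 to 74.5 CPM in the other controls, and compression replicate 4 in the share of counts from the ribosomal precursor Rn45s, 5.64% against 0.553% to 2.67% in the other compression libraries.

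The Day 0 libraries were not alike for these genes. Libraries 1 and 2 both lay above libraries 3 and 4 in 31 of 37 members (83.8%), against 26.4% of the 15246 genes tested, and both lay below them in 2 (Pfkp and Pfkfb4, 5.41%) against 28.0%. The widest spreads, as highest over lowest Day 0 library, were those of Adm (4.58-fold), Car9 (4.11-fold), Ankrd37 (3.73-fold) and Ddit4 (2.59-fold), all of them hypoxia-responsive genes outside the glycolytic chain. Hk1 (1.10-fold) and Pfkm (1.15-fold) varied least. The order also held for 29 of 38 nuclear oxidative phosphorylation genes, 20 of 29 genes of pyruvate entry and the tricarboxylic acid cycle and 14 of 29 hypoxia response genes outside the list, but for 3 of 16 other glycolytic isozymes. Over 11327 genes outside the list, deviations from the Day 0 mean correlated at 0.157 between libraries 1 and 2 and at 0.369 between 3 and 4, and at -0.717 to -0.586 across the pairs (a description across genes that share library and depth; deviations from a mean of 4 sum to 0, which by itself pulls such values below 0). The sample descriptions carry the numbers 3 and 4 for libraries 1 and 2 and the numbers 21 and 23 for libraries 3 and 4, with no meaning given. Because the pairs stood apart, each comparison with Day 0 is given with all 4 Day 0 libraries and, where it matters, without either pair, an alternative chosen after seeing the data. The pairs were told apart by the levels of these same genes. Changes against 1 pair, with their direction and adjusted p, thus follow in part from that choice. They show how far a result depends on the Day 0 libraries and are no tests of a rise or fall.

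**Figure D1:**
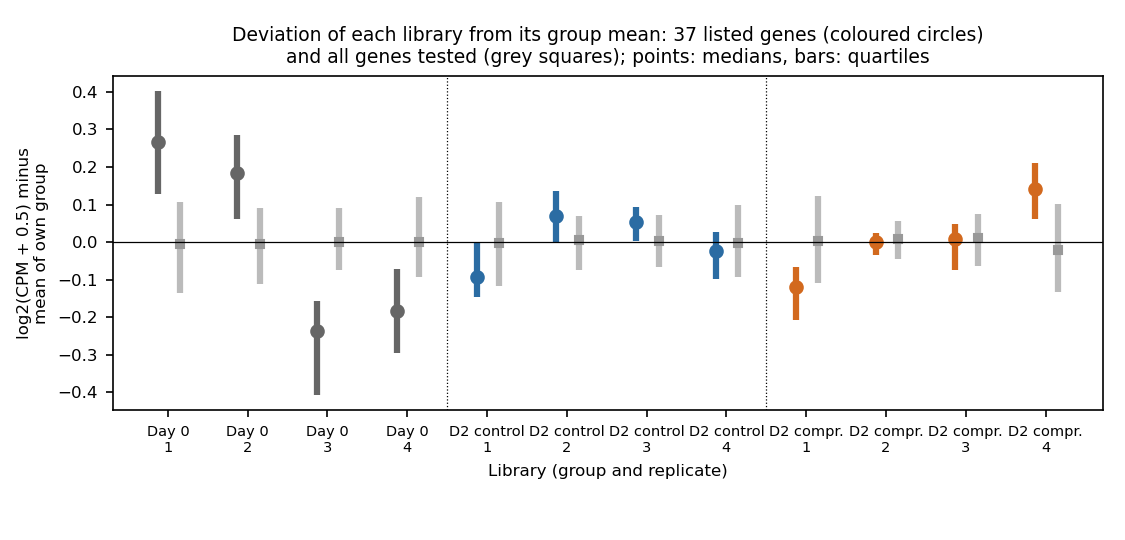
Deviation of each of the 12 libraries (horizontal axis) from the mean of its own group, in log2(CPM + 0.5), as the median (circle) and quartiles (bar) over the 37 listed genes and, in grey squares, over all 15246 genes tested. Day 0 libraries 1 and 2 have medians of 0.27 and 0.18 and libraries 3 and 4 of -0.24 and -0.18 for the listed genes, while the medians over all genes stay near 0.

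The Day 2 libraries had an order as well. Compression replicate 4 was the highest of the 8 Day 2 libraries in 23 of 37 members (62.2%) against 20.3% of all genes tested, and control replicate 1 was the lowest in 18 (48.6%) against 22.2%. The median deviation of the members was 0.14 in compression replicate 4 and -0.12 in compression replicate 1. In compression replicates 2 and 3, numbered alike by the labels, it was -0.0006 and 0.0092. Their marker sums were also close (lung epithelium 2809 and 2817 CPM, macrophages and leukocytes 370 and 368 CPM). They were kept as 2 libraries, so a count of 4 may overstate the replication under compression. Compression replicate 4 is also the library with the highest share of Rn45s. With Rn45s counts left out of the fit, 27 of 37 members were positive in compression against control, with a median log2 change of 0.074. With them kept, 27 were positive and the median was 0.067. The part of Rn45s in these levels was not tested beyond that refit.

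Because the RNA is that of whole explants, fewer cells of a type and less RNA per cell cannot be told apart. All Day 2 lungs had been in the polymer and no Day 0 lungs had, so the polymer and the time in culture cannot be told apart. Between Day 0 and Day 2 the list moved in both directions, with more genes rising than falling. In controls against Day 0, 14 members rose and 5 fell (51.4% called, against 40.2% of all genes tested, of which 22.6% rose and 17.6% fell), and the median log2 change was 0.23 against 0.020 over all genes. Under compression against Day 0, 18 rose and 3 fell (56.8%, against 49.1% of all genes, 26.6% up and 22.5% down), with a median of 0.27 against 0.017. By direction, 37.8% of members rose and 13.5% fell in controls, and 48.6% rose and 8.11% fell under compression. Calls are those with an adjusted p under 0.05 in edgeR's quasi-likelihood test, adjusted over all 15246 genes by the Benjamini-Hochberg method, and all adjusted p-values of the text come from it unless another tool is named. Both comparisons share the Day 0 libraries and are therefore not independent. The 4 Day 2 libraries did not overlap the 4 Day 0 libraries for 9 members that were higher and 3 that were lower in controls (20.4% and 17.4% of all genes), and for 13 and 2 under compression (23.5% and 19.5%).

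The balance depended on which Day 0 libraries entered. With libraries 1 and 2 left out, 20 members rose and 3 fell in controls (17.9% and 15.3% of all genes) and 24 rose and 3 fell under compression (22.2% and 19.3% of all genes). Without libraries 3 and 4, 7 rose and 9 fell in controls (19.6% and 16.8% of all genes) and 9 rose and 8 fell under compression (23.2% and 21.4% of all genes). Single libraries mattered in controls too, where 9 members rose without Day 0 library 3, control replicate 2 or control replicate 3, 8 fell without Day 0 library 3 and 3 fell without control replicate 1. Called in the same direction under every alternative tried were 9 members in controls, namely Pfkp, Aldoc, Pdk1, P4ha2, Fam162a, Car9 and Vldlr, which rose, and Hk2 and Pfkfb3, which fell. Under compression these 9 and also Hk1 and Pfkl, which rose, kept their call. No called member changed sign under any alternative.

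**Figure D2:**
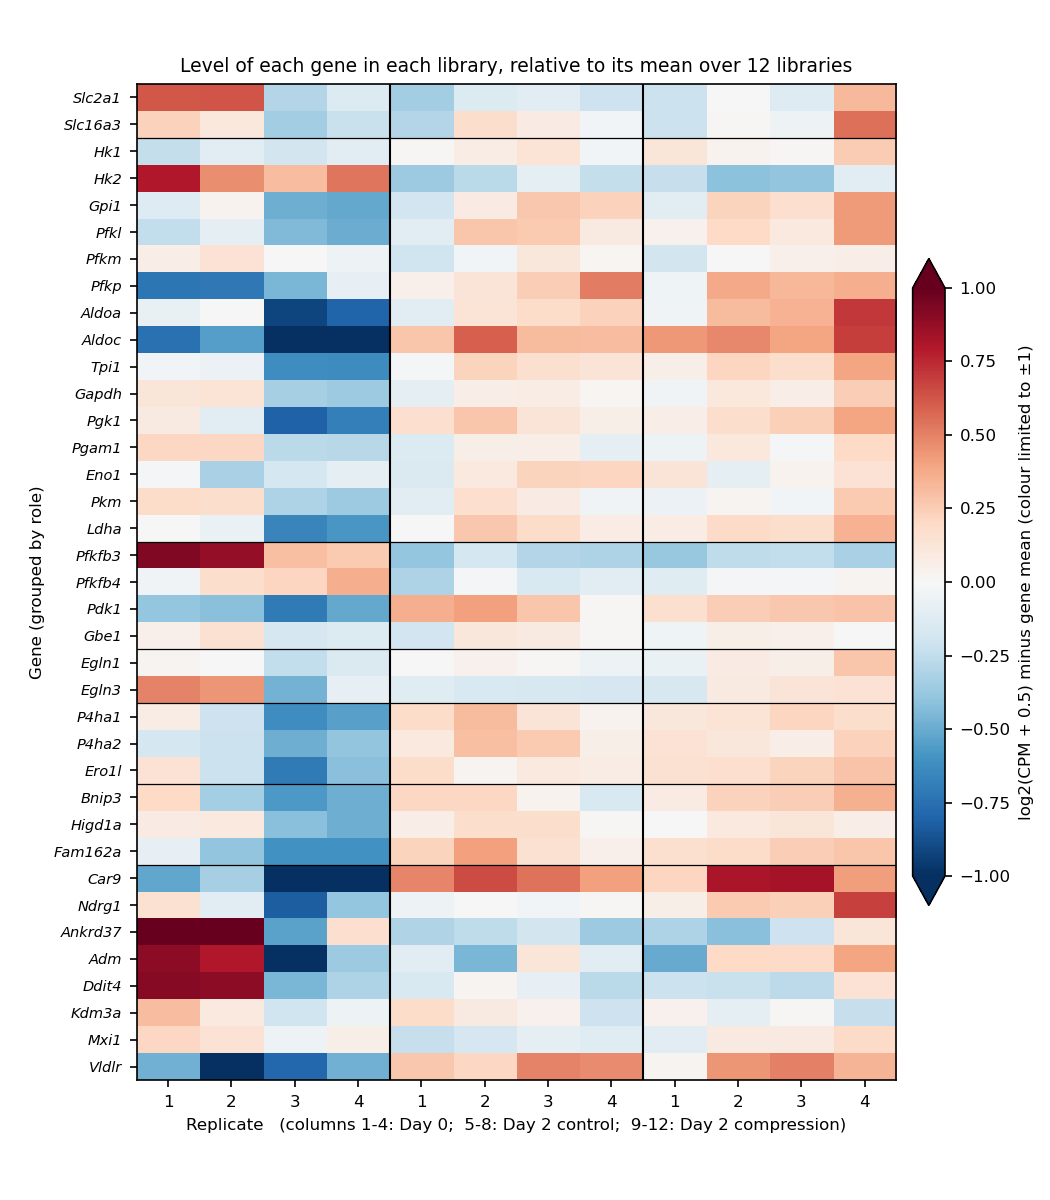
Level of each of the 37 genes (rows, grouped by role) in each of the 12 libraries (columns, Day 0, Day 2 control and Day 2 compression from left to right), as log2(CPM + 0.5) minus the gene's mean over all libraries, with red above and blue below. The Day 0 block divides between libraries 1 and 2 and libraries 3 and 4, and Car9, Aldoc, Vldlr and Pdk1 are below their mean in all Day 0 libraries while Hk2 and Pfkfb3 are above it.

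**Figure D3:**
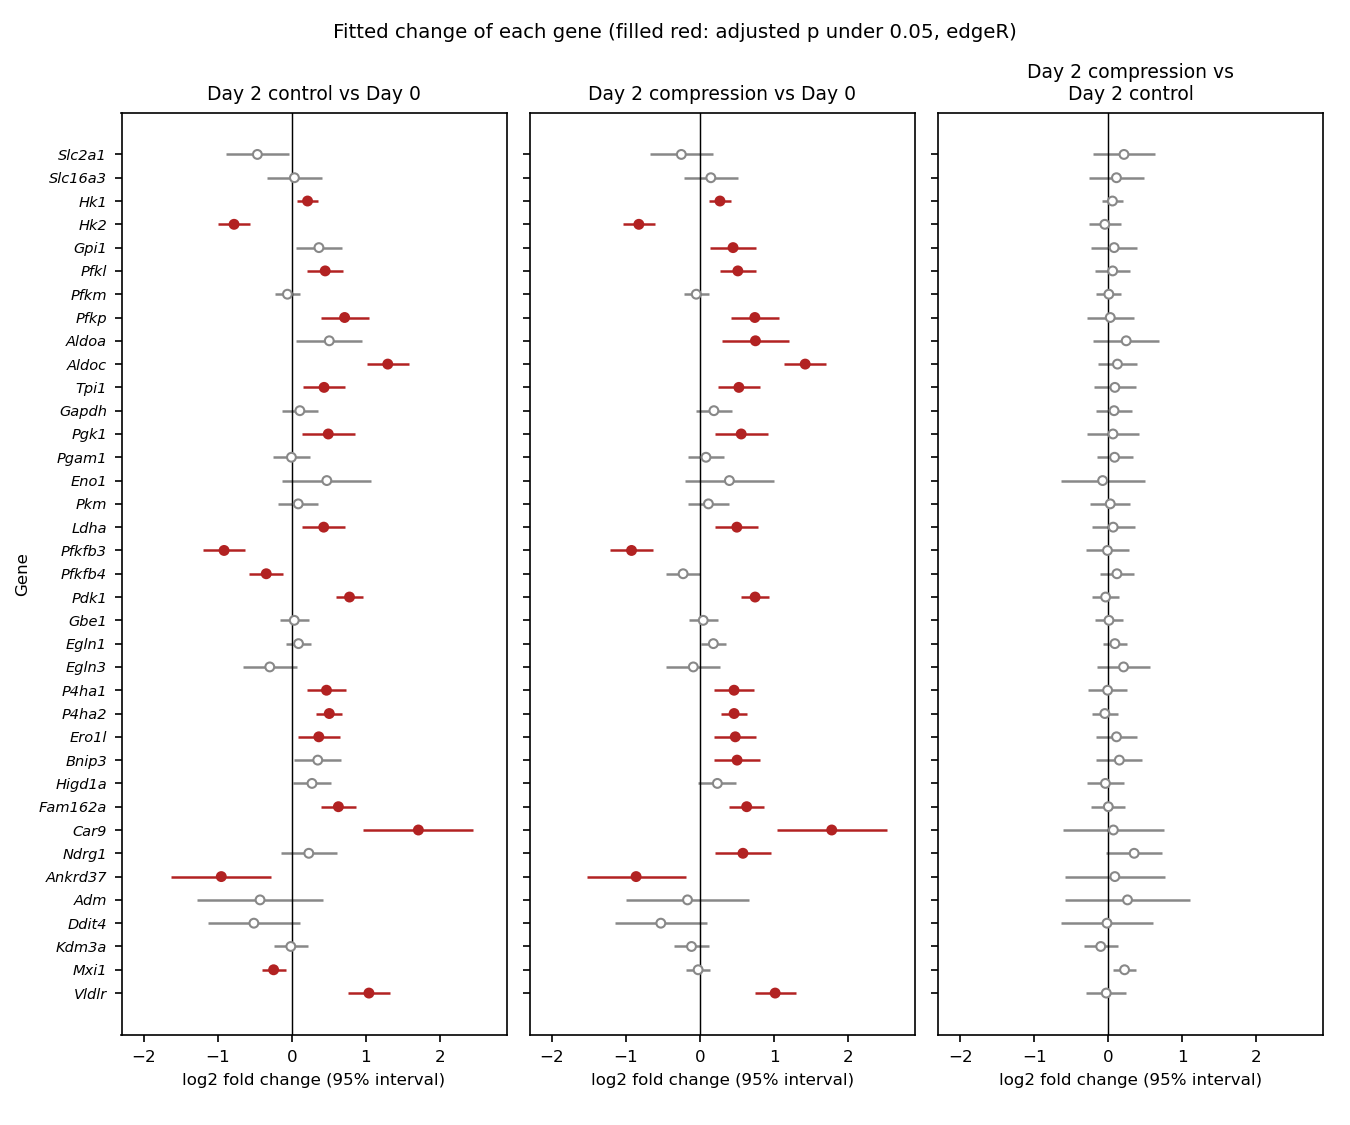
Fitted log2 fold change (points) with its 95% interval (bars) of each gene in the 3 comparisons, filled red where the adjusted p is under 0.05. Calls are spread over the first 2 panels, 19 and 21 of 37, and the third panel, compression against control, holds none.

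Values of single libraries are given below in the order of replicates 1 to 4, and log2 changes with their standard error. Neither transporter passed the test in either comparison with Day 0. Slc2a1 encodes GLUT1, the main glucose importer of embryonic tissue. It stood at 189.7, 191, 101 and 112 CPM at Day 0, 96.6, 112, 114 and 106 CPM in controls and 106, 124, 113 and 154 CPM under compression. Day 0 libraries 1 and 2 were the highest of all 12, and libraries 3 and 4 lay within the range of Day 2. The log2 change was -0.47 ± 0.20 in controls (adjusted p = 0.0749) and -0.25 ± 0.19 under compression (adjusted p = 0.301). It fell in controls with DESeq2 (adjusted p = 0.031), and also in edgeR without Day 0 library 3 (adjusted p = 0.0141) or 4 (adjusted p = 0.0285). Without Day 0 library 1 or 2 the change in controls was -0.35 (adjusted p = 0.181) or -0.32 (adjusted p = 0.216). Without both of them it was -0.0003 (adjusted p = 0.999), and without libraries 3 and 4 it was -0.84 (adjusted p = 0.000578). Under compression the value without Day 0 libraries 1 and 2 was positive, 0.22 (adjusted p = 0.226).

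Slc16a3 encodes MCT4, an exporter of lactate in glycolytic cells. Its levels were 93.8, 86.1, 62.8 and 68.4 CPM at Day 0, 65.0, 90.4, 84.5 and 78.5 CPM in controls and 68.6, 80.5, 77.2 and 117 CPM under compression. All 3 groups overlapped, and compression replicate 4 was the highest library. The change was 0.035 ± 0.17 in controls (adjusted p = 0.891) and 0.15 ± 0.17 under compression (adjusted p = 0.501), and the latter was -0.060 without compression replicate 4.

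Of the 15 glycolytic enzymes, 7 rose and 1 fell in controls, and 9 rose and 1 fell under compression, with median log2 changes of 0.43 and 0.45. That is 53.3% and 66.7% called, against 40.2% and 49.1% of all genes. Rises were called from hexose phosphorylation (Hk1) to lactate formation (Ldha), but in neither comparison for Pfkm, Gapdh, Pgam1, Eno1 or Pkm. Those of Gpi1 and Aldoa were called under compression only, and Hk2 fell in both comparisons. The largest rise was that of Aldoc, the aldolase isozyme best known from brain. Its levels were 9.88, 11.4, 7.79 and 7.49 CPM at Day 0, 20.6, 25.8, 21.2 and 21.1 CPM in controls and 23.0, 23.7, 22.4 and 27.6 CPM under compression, with every Day 2 library above every Day 0 library. It rose by 1.30 ± 0.13 in controls (adjusted p = 7.36e-06) and 1.42 ± 0.13 under compression (adjusted p = 2.42e-06), that is 2.45-fold and 2.67-fold. At least a 2-fold change in a called gene was seen for 9.28% of all genes in controls and 11.7% under compression, and among members for Aldoc, Car9 and Vldlr in both.

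Aldoa, the ubiquitous aldolase, stood at 576, 608, 321 and 348 CPM at Day 0, 565, 666, 689 and 711 CPM in controls and 592, 754, 774 and 992 CPM under compression. Day 0 libraries 1 and 2 reached the lower Day 2 values and libraries 3 and 4 did not. The change was 0.51 ± 0.21 in controls (adjusted p = 0.0668), and it passed with DESeq2 (adjusted p = 0.0374) or without Day 0 library 1 (adjusted p = 0.0455) or 2 (adjusted p = 0.026). Without Day 0 libraries 3 and 4 the change in controls was 0.14 (adjusted p = 0.554), and without 1 and 2 it was 0.96 (adjusted p = 0.00205). Under compression Aldoa rose by 0.75 ± 0.21 (adjusted p = 0.00928), and the adjusted p was 0.0904 without Day 0 libraries 3 and 4.

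Ldha encodes the lactate dehydrogenase subunit that turns pyruvate into lactate. It stood at 746, 708, 470.1 and 495 CPM at Day 0, 739, 895, 842 and 783 CPM in controls and 784, 848, 838 and 943 CPM under compression. Under compression all libraries exceeded Day 0, and in controls replicate 1 lay within it. Ldha rose by 0.43 ± 0.14 in controls (adjusted p = 0.0211) and 0.50 ± 0.14 under compression (adjusted p = 0.00784). Tpi1, triose phosphate isomerase, had levels of 484, 472, 319.7 and 318 CPM at Day 0, 489.9, 574, 551 and 539 CPM in controls and 514, 571, 557 and 649 CPM under compression. No Day 2 library of Tpi1 overlapped Day 0, by a margin of a few CPM from Day 0 library 1. It rose by 0.44 ± 0.13 in controls (adjusted p = 0.019) and 0.52 ± 0.13 under compression (adjusted p = 0.00536). Both calls in controls were lost without any 1 of Day 0 libraries 3 or 4 or control replicates 2 or 3 (adjusted p between 0.0516 and 0.0714). Against Day 0 libraries 1 and 2 alone their changes in controls were 0.15 and 0.16, and under compression 0.22 (adjusted p = 0.0896) and 0.25 (adjusted p = 0.0612).

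Pgk1, the first ATP-yielding kinase of the pathway, ranged over 174 to 325 CPM at Day 0, 317 to 370.3 CPM in controls and 320.3 to 401 CPM under compression, and rose by 0.49 ± 0.16 in controls (adjusted p = 0.0295) and 0.56 ± 0.16 under compression (adjusted p = 0.0133). In controls that call was lost without any 1 of Day 0 libraries 3 or 4 or control replicates 1, 2 or 3 (adjusted p between 0.0592 and 0.0863). It was also lost when only the 8 libraries compared were fitted (adjusted p = 0.0569) and, under compression, without Day 0 libraries 3 and 4 (adjusted p = 0.0964). Gpi1, the isomerase that makes fructose phosphate from glucose phosphate, had a log2 change of 0.37 ± 0.14 in controls (adjusted p = 0.057). It rose by 0.45 ± 0.14 under compression (adjusted p = 0.02), with 282 to 413 CPM at Day 0 and 373 to 541 CPM under compression. The rise was lost without any 1 of Day 0 libraries 3 (adjusted p = 0.0763) or 4 (0.0723) or compression replicates 2 (0.0538) or 4 (0.0789). In controls the call appeared with DESeq2 (adjusted p = 0.0468), without Day 0 library 2 (0.0207) or without control replicate 1 (0.0314).

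Pkm and Gapdh, among the most abundant members per length, did not pass in either comparison. Pkm, pyruvate kinase of muscle and embryo, stood at 1284, 1282, 914 and 881 CPM at Day 0, 1053, 1270, 1198 and 1109 CPM in controls and 1090, 1155, 1113 and 1360 CPM under compression. Gapdh, the dehydrogenase often taken as a reference gene, stood at 785, 791, 571 and 562 CPM, 674, 755, 761 and 731 CPM and 702, 774, 753 and 854 CPM. Day 0 libraries 1 and 2 of both genes were as high as most Day 2 libraries and libraries 3 and 4 were below all of them. The changes in controls were 0.086 ± 0.13 for Pkm (adjusted p = 0.622) and 0.11 ± 0.11 for Gapdh (adjusted p = 0.472), with 95% intervals of -0.19 to 0.36 and -0.13 to 0.35. Under compression they were 0.11 (adjusted p = 0.479) and 0.19 (adjusted p = 0.185). Against Day 0 libraries 3 and 4 alone, the lower pair, both changes were positive in both arms, in controls 0.35 and 0.35 (adjusted p = 0.0261 and 0.0106). Pgam1, phosphoglycerate mutase, had a change of -0.0054 in controls (adjusted p = 0.975) and 0.080 under compression (adjusted p = 0.582). Its change in controls was -0.24 without Day 0 libraries 3 and 4 (adjusted p = 0.0476) and 0.24 without 1 and 2 (adjusted p = 0.0534). Eno1, with its few counts, had a change of 0.47 ± 0.28 in controls (adjusted p = 0.24) and 0.40 ± 0.28 under compression (adjusted p = 0.285).

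For these enzymes the size of the rise depended on the Day 0 pair. Against Day 0 libraries 3 and 4 alone, the rise under compression was 0.68 for Gpi1, 1.21 for Aldoa, 0.84 for Tpi1, 0.96 for Pgk1 and 0.81 for Ldha. Against libraries 1 and 2 alone the changes of the same genes were 0.22, 0.38, 0.25, 0.22 and 0.22, all positive and none past the threshold. Those of Hk1, Pfkl, Pfkp and Aldoc under compression passed against either pair.

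At the hexokinase step 1 isozyme fell while the other rose. Hk2, the inducible hexokinase of insulin-sensitive and embryonic tissue, ranged over 164 to 229.9 CPM at Day 0, 102 to 124 CPM in controls and 98.9 to 122 CPM under compression, and no Day 2 library reached Day 0. It fell by 0.78 ± 0.10 in controls (adjusted p = 4.57e-05) and by 0.83 ± 0.10 under compression (adjusted p = 2.00e-05). Hk1, the constitutive hexokinase, ranged over 49.1 to 53.9 CPM at Day 0, 56.9 to 63.9 CPM in controls and 58.3 to 69.3 CPM under compression, and rose by 0.21 ± 0.068 in controls (adjusted p = 0.0231) and 0.27 ± 0.068 under compression (adjusted p = 0.00489). In controls the Hk1 call was lost without any 1 of Day 0 libraries 1 or 3, control replicates 2 or 3 or compression replicate 2 (adjusted p between 0.0512 and 0.104). It was also lost without either Day 0 pair (adjusted p = 0.121 and 0.0844). Per kilobase of exon, Hk2 made up 83.9% ± 2.16 (SD, n = 4) of the summed Hk1 and Hk2 level at Day 0, 72.6% ± 1.14 in controls and 71.2% ± 0.583 under compression. The Day 0 shares, 82.1% to 87.0%, did not overlap those of Day 2, and the share of Hk2 lay apart from Day 2 in both Day 0 pairs.

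Phosphofructokinase, which commits glucose to glycolysis, has liver, muscle and platelet isozymes. Pfkl, the liver type, ranged over 165 to 218 CPM at Day 0, 215 to 282 CPM in controls and 239.5 to 312 CPM under compression, and rose by 0.45 ± 0.11 in controls (adjusted p = 0.00562) and 0.51 ± 0.11 under compression (adjusted p = 0.00196). Pfkp, the platelet type, ranged over 23.8 to 37.4 CPM at Day 0, 41.1 to 56.8 CPM in controls and 38.4 to 51.6 CPM under compression, and rose by 0.71 ± 0.15 in controls (adjusted p = 0.00204) and 0.74 ± 0.15 under compression (adjusted p = 0.0012). Pfkm, the muscle type, ranged over 79.9 to 91.8 CPM at Day 0, 72.2 to 89.8 CPM in controls and 73.1 to 87.1 CPM under compression, and its change was -0.059 ± 0.079 in controls (adjusted p = 0.58) and -0.051 ± 0.078 under compression (adjusted p = 0.615). Its share of the summed level per kilobase of the 3 isozymes was 45.9% ± 1.21 at Day 0, 37% ± 1.43 in controls and 36.2% ± 1.86 under compression, and no Day 2 library reached a Day 0 share. Pfkl took 50.2% ± 2.21, 57.7% ± 2.04 and 58.6% ± 2.15. The Pfkl change in controls against Day 0 libraries 1 and 2 alone was 0.29 (adjusted p = 0.102). Although Aldoc rose the most of the enzymes, it made up 1.79% ± 0.271 of the summed aldolase level per kilobase at Day 0, 2.94% ± 0.367 in controls and 2.76% ± 0.418 under compression, with Aldoa the rest. Shares are descriptions and were not tested. The size of every share, that of Hk2 included, depends on the merged exon lengths, which can exceed those of the transcripts present.

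**Figure D4:**
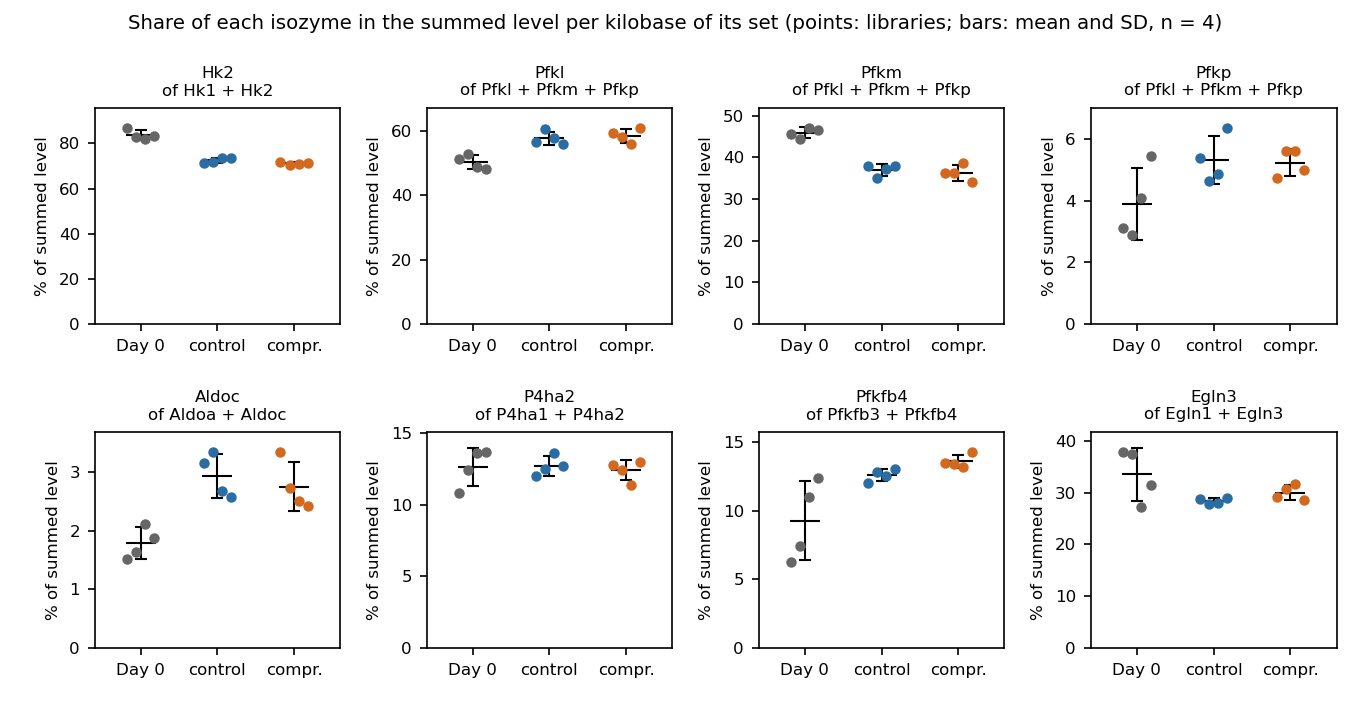
Share of 1 isozyme in the summed level per kilobase of exon of its set (vertical axis, percent), with 1 point per library and the mean and SD of each group of 4. Hk2 and Pfkm have Day 2 shares below all Day 0 shares, and P4ha2 has overlapping shares in the 3 groups.

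Ordered by level per kilobase of exon, the most abundant members were glycolytic enzymes. The length is that of all annotated exons of a gene merged (4133 bases for Gapdh, 13401 for Pfkp). It can exceed that of the transcripts present, so the order depends on the annotation. At Day 0 the order was Pkm (218 ± 44.6 CPM per kilobase), Ldha (183 ± 43.0), Gapdh (164 ± 30.9) and Aldoa (159 ± 51.4), neighbours that did not differ beyond their spread. In controls it was Ldha (246 ± 20.6), Pkm (231 ± 19.2), Aldoa (226 ± 22.2) and Tpi1 (196 ± 12.9). Under compression Aldoa (267 ± 56.6) stood first, followed by Ldha (258 ± 19.9), Pkm (236 ± 24.6) and Tpi1 (208 ± 20.4), again with overlapping neighbours. Eno1, with the limit given above for Eno1b, was the lowest in all 3 groups, and Car9 was next to lowest at Day 0 (0.998 ± 0.617 CPM per kilobase).

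The regulators of glycolytic flux diverged. Pdk1, the kinase that shuts off pyruvate dehydrogenase, stood at 113, 110.0, 90.1 and 103 CPM at Day 0, 189.9, 196, 179 and 148 CPM in controls and 164, 175, 177 and 179 CPM under compression. Every Day 2 library exceeded every Day 0 library, and control replicate 4 was the lowest of Day 2. Pdk1 rose by 0.78 ± 0.088 in controls (adjusted p = 1.61e-05) and 0.74 ± 0.088 under compression (adjusted p = 1.60e-05). Pfkfb3 encodes a bifunctional enzyme whose product, a fructose bisphosphate, activates phosphofructokinase. Its levels were 246, 237, 159 and 154 CPM at Day 0, 98.3, 114, 105 and 104 CPM in controls and 98.95, 108, 108 and 103 CPM under compression. All Day 2 libraries lay below all Day 0 libraries, of which 1 and 2 were the higher pair. It fell by 0.91 ± 0.13 in controls (adjusted p = 0.000146) and by 0.93 ± 0.13 under compression (adjusted p = 9.53e-05). Set against Day 0 libraries 3 and 4 alone, the fall was by 0.58 in controls (adjusted p = 9.94e-05) and by 0.59 under compression (adjusted p = 6.97e-05).

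Pfkfb4, a related isozyme, was much lower, at 10.6, 12.3, 12.7 and 14.1 CPM at Day 0, 8.66, 10.8, 9.72 and 10.02 CPM in controls and 9.96, 10.7, 10.7 and 11.1 CPM under compression. It was 1 of the 2 members whose Day 0 libraries 1 and 2 lay below 3 and 4. It fell by 0.35 ± 0.11 in controls (adjusted p = 0.0189), a call lost without Day 0 library 4 (adjusted p = 0.0518) or control replicate 1 (adjusted p = 0.0502). Under compression the change was -0.23 ± 0.11 (adjusted p = 0.0879), and it passed without Day 0 library 1 (adjusted p = 0.0185). Gbe1, the glycogen branching enzyme, ranged over 19.9 to 24.98 CPM at Day 0, 19.5 to 24.3 CPM in controls and 21.7 to 23.3 CPM under compression. Its change was 0.033 in controls (95% interval -0.16 to 0.23) and 0.043 under compression (95% interval -0.15 to 0.24).

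Neither EGLN gene passed the test against Day 0. Egln1 encodes the main HIF prolyl hydroxylase at normal oxygen. Its levels were 138, 135, 114 and 122 CPM at Day 0, 136, 139.6, 136 and 130.1 CPM in controls and 129, 143, 141 and 164 CPM under compression, and the groups overlapped. Its change was 0.090 ± 0.077 in controls (adjusted p = 0.38) and 0.18 ± 0.077 under compression (adjusted p = 0.0682). The latter passed without compression replicate 1 (adjusted p = 0.0373). Egln3, a hydroxylase gene that HIF itself induces, stood at 62.3, 60.0, 31.4 and 41.5 CPM at Day 0, 40.4, 39.6, 39.4 and 39.1 CPM in controls and 39.2, 46.9, 48.2 and 48.5 CPM under compression. Day 0 libraries 1 and 2 lay above all Day 2 libraries, library 3 below all of them and library 4 among them. Its change was -0.30 ± 0.17 in controls (adjusted p = 0.18), where it fell without Day 0 library 3 (adjusted p = 0.00885), and -0.091 ± 0.17 under compression (adjusted p = 0.68). Without Day 0 libraries 3 and 4, its lower pair, the change of Egln3 in controls was -0.64 (adjusted p = 0.000256). Without libraries 1 and 2, its higher pair, it was 0.10 (adjusted p = 0.535).

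All 3 genes of collagen hydroxylation and oxidative folding rose in both comparisons. P4ha1 and P4ha2 encode catalytic subunits of collagen prolyl hydroxylase, and Ero1l an oxidase that drives disulfide bond formation in the endoplasmic reticulum. P4ha1 ranged over 136 to 221 CPM at Day 0, 216 to 261 CPM in controls and 227 to 244 CPM under compression, and rose by 0.47 ± 0.12 in controls (adjusted p = 0.00816) and 0.46 ± 0.12 under compression (adjusted p = 0.00719). P4ha2 ranged over 32.4 to 40.4 CPM at Day 0, 47.8 to 56.4 CPM in controls and 47.9 to 53.9 CPM under compression, and rose by 0.51 ± 0.082 in controls (adjusted p = 0.00029) and 0.46 ± 0.082 under compression (adjusted p = 0.00044). The P4ha2 share of both subunits per kilobase was 12.6% ± 1.36 at Day 0, 12.7% ± 0.700 in controls and 12.4% ± 0.705 under compression. Ero1l ranged over 68.1 to 123 CPM at Day 0, 114 to 127 CPM in controls and 124 to 136 CPM under compression, and rose by 0.36 ± 0.13 in controls (adjusted p = 0.0401) and 0.48 ± 0.13 under compression (adjusted p = 0.00859). The Ero1l call in controls was lost in 11 of the 12 omissions of a single library, all but that of Day 0 library 1 (adjusted p up to 0.11). Without Day 0 libraries 3 and 4 the change of P4ha1 was 0.22 in controls (adjusted p = 0.0715) and 0.20 under compression (adjusted p = 0.0748), and that of Ero1l was 0.11 (adjusted p = 0.388) and 0.22 (adjusted p = 0.0758), while P4ha2 kept its call.

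Among the 3 mitochondrial and cell death genes, Fam162a, a HIF target linked to apoptosis, ranged over 47.2 to 68.0 CPM at Day 0, 74.9 to 95.9 CPM in controls and 80.8 to 87.6 CPM under compression, with no overlap between Day 2 and Day 0. It rose by 0.63 ± 0.11 in controls (adjusted p = 0.000471) and 0.63 ± 0.11 under compression (adjusted p = 0.000343). Bnip3, a mitophagy receptor of the BCL family, ranged over 79.9 to 137 CPM at Day 0, 108 to 138 CPM in controls and 126 to 153 CPM under compression. Its change was 0.35 ± 0.15 in controls (adjusted p = 0.0717) and it rose by 0.50 ± 0.15 under compression (adjusted p = 0.0122). Without Day 0 library 1, its highest, it also rose in controls (adjusted p = 0.00112), and without Day 0 libraries 3 and 4 the adjusted p under compression was 0.163. Higd1a, which binds respiratory chain complexes, had a change of 0.27 ± 0.12 in controls (adjusted p = 0.0842) and 0.23 ± 0.12 under compression (adjusted p = 0.12). In controls it passed without Day 0 library 1 (adjusted p = 0.0364) or 2 (0.0279), and under compression without library 2 (0.0367). Against Day 0 libraries 1 and 2 alone its change in controls was 0.0054 (adjusted p = 0.962), and against 3 and 4 alone 0.56 (adjusted p = 0.000204). Fam162a, Bnip3 and Higd1a are among the 5 members whose exons overlap a gene on the opposite strand.

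The 8 other hypoxia response genes held the largest rise of the list in both comparisons and, in controls, the largest fall. Car9 encodes carbonic anhydrase 9, a cell-surface enzyme widely used as a marker of HIF activity. Its levels were 3.25, 3.77, 0.917 and 1.26 CPM at Day 0, 7.05, 7.96, 7.34 and 6.64 CPM in controls and 5.74, 8.99, 9.05 and 6.67 CPM under compression. Every Day 2 library exceeded every Day 0 library, although Day 0 libraries 1 and 2 were above 3 and 4 by over 2-fold. It rose by 1.71 ± 0.34 in controls (adjusted p = 0.00152) and 1.78 ± 0.34 under compression (adjusted p = 0.00086), that is 3.27-fold and 3.43-fold. Against Day 0 libraries 1 and 2 alone the rise was by 1.04 in controls (adjusted p = 0.00312) and 1.11 under compression (adjusted p = 0.00163), and against 3 and 4 alone by 2.70 and 2.77 (adjusted p = 3.46e-05 and 2.43e-05).

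Vldlr, a lipoprotein and reelin receptor that both HIF and the integrated stress response induce, stood at 66.9, 46.1, 54.1 and 67.1 CPM at Day 0, 113, 108, 132 and 129.9 CPM in controls and 95.3, 127, 133 and 119 CPM under compression. The Day 2 libraries were all above Day 0, in which the 2 pairs of libraries did not separate. It rose by 1.04 ± 0.13 in controls (adjusted p = 3.79e-05) and 1.01 ± 0.13 under compression (adjusted p = 3.16e-05). Ndrg1, a stress-responsive gene linked to differentiation, stood at 112, 92.9, 56.3 and 76.3 CPM, 96.4, 99.9, 97.9 and 101 CPM and 104, 119.8, 118 and 161 CPM in the same order. The controls lay within the Day 0 range and close together, and compression replicate 4 was far above the rest. Its change was 0.23 ± 0.18 in controls (adjusted p = 0.323), and it rose by 0.58 ± 0.18 under compression (adjusted p = 0.0153). Without compression replicate 4 that change was 0.42 (adjusted p = 0.0574), and without Day 0 libraries 3 and 4 it was 0.28 (adjusted p = 0.137).

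Ankrd37, an ankyrin repeat gene used in hypoxia signatures, ranged over 6.37 to 23.8 CPM at Day 0, 7.28 to 8.29 CPM in controls and 6.96 to 10.4 CPM under compression. Day 0 libraries 1 and 2 (23.8 and 19.6 CPM) stood far above all others, and library 3 (6.37 CPM) was the lowest of all 12. It fell by 0.95 ± 0.31 in controls (adjusted p = 0.0271) and by 0.86 ± 0.31 under compression (adjusted p = 0.034), but without Day 0 libraries 1 and 2 the changes were -0.16 (adjusted p = 0.604) and -0.065 (adjusted p = 0.83). Leaving out Day 0 library 1 or 2, control replicate 1, 2 or 4 (in controls) or compression replicate 1, 2 or 3 (under compression) also ended the call, with adjusted p between 0.0507 and 0.116.

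Adm and Ddit4 had the same Day 0 pattern without a call. Adm, the precursor of the vessel-dilating peptide adrenomedullin, stood at 9.46, 8.82, 2.06 and 3.65 CPM at Day 0, and within 3.40 to 5.30 CPM in controls and 3.27 to 6.54 CPM under compression. Its change was -0.43 ± 0.39 in controls (adjusted p = 0.411) and -0.17 ± 0.39 under compression (adjusted p = 0.742). Against Day 0 libraries 1 and 2 alone, its higher pair, the change in controls was -1.07 (adjusted p = 0.00669). Against 3 and 4 alone, its lower pair, the change under compression was 0.86 (adjusted p = 0.0484). Ddit4, which encodes the mTOR inhibitor REDD1, stood at 309.8, 306, 119.6 and 132 CPM at Day 0, within 136 to 167 CPM in controls and 137 to 181 CPM under compression. Its change was -0.51 ± 0.28 (adjusted p = 0.172) and -0.53 ± 0.28 (adjusted p = 0.142). It fell when Day 0 library 3 was left out, in controls (adjusted p = 0.0292) and under compression (adjusted p = 0.0208), and likewise without library 4 (adjusted p = 0.0476 and 0.0361). Without Day 0 libraries 1 and 2 its change in controls was 0.26 (adjusted p = 0.134).

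Mxi1, a MYC antagonist, stood at 78.9, 75.4, 66.0 and 71.3 CPM at Day 0, 58.2, 60.8, 64.0 and 62.9 CPM in controls and 63.0, 72.6, 72.7 and 78.0 CPM under compression. The controls lay below all Day 0 libraries, and 3 of the 4 compression libraries lay within the Day 0 range. It fell by 0.25 ± 0.075 in controls (adjusted p = 0.0182; without Day 0 libraries 1 and 2, 0.154), and its change under compression was -0.026 ± 0.075 (adjusted p = 0.799). Kdm3a, a histone demethylase gene that HIF induces, ranged over 189 to 268 CPM at Day 0, 187 to 246 CPM in controls and 184 to 223 CPM under compression, with changes of -0.014 (adjusted p = 0.933) and -0.12 (adjusted p = 0.392).

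**Figure D5:**
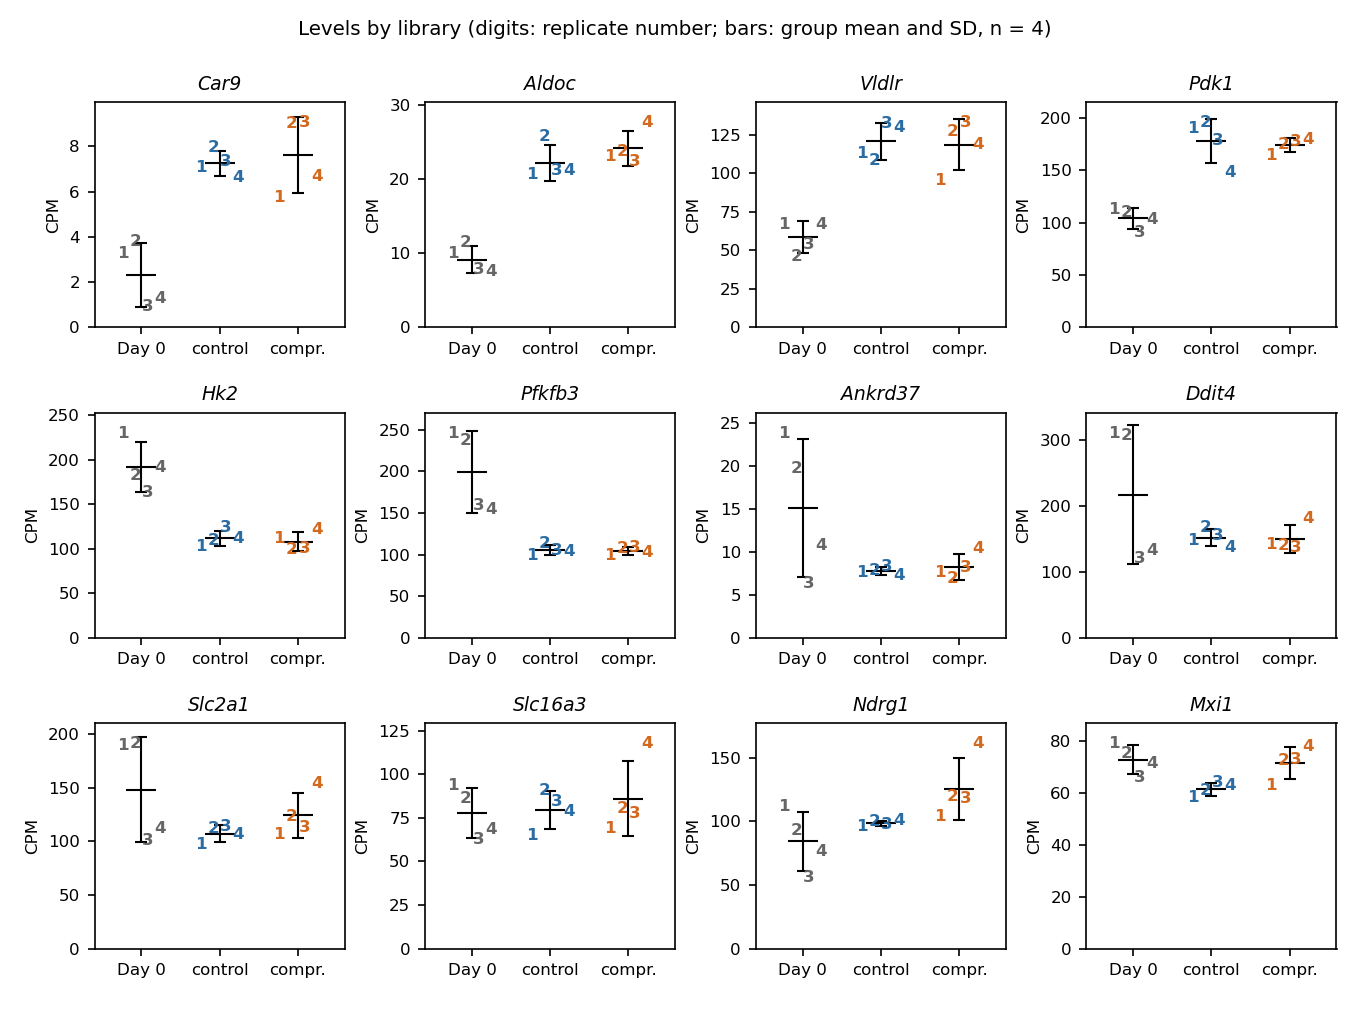
Levels in CPM (vertical axes, from 0) of 12 of the genes in each library, with the digit giving the replicate and the bars the group mean and SD (n = 4). Car9, Aldoc, Vldlr and Pdk1 lie higher in all Day 2 libraries, Hk2 and Pfkfb3 lower, and for Ankrd37, Ddit4 and Slc2a1 Day 0 libraries 1 and 2 lie above the rest.

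The direct comparison on Day 2 sets crosslinked against liquid polymer. The laser, the crosslinking and the confinement of the lung came together in it and cannot be told apart. No member was called (0%), as was no gene of the 15246 tested (0%) with edgeR. At an unadjusted p under 0.05 there was 1 member (2.7%) against 1839 genes (12.1%), and DESeq2 called none of the members (2 at an unadjusted p under 0.05) and 71 genes in all. With compression replicates 2 and 3 summed in edgeR, 1 member and 1183 genes had an unadjusted p under 0.05. The median log2 change of the members was 0.067 against 0.0039 over all genes, and 27 of 37 were positive (73.0%), against 51.0% of all genes. Without compression replicate 4, the highest Day 2 library in 23 members, 19 of 37 were positive (51.4%), against 50% of all genes, and the median of the members was 0.0028. The 95% intervals of 36 members lay within a 2-fold change in either direction, all but that of Adm (-0.58 to 1.10), and those of 29 lay within 1.5-fold.

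Mxi1 had the smallest p, with levels of 58.2, 60.8, 64.0 and 62.9 CPM in controls and 63.0, 72.6, 72.7 and 78.0 CPM under compression, of which compression replicate 1 lay within the controls. Its change was 0.22 ± 0.075 (95% interval 0.060 to 0.38, adjusted p = 0.366). Ndrg1 was the only member whose groups did not overlap, where 5.77% of all genes did not (3.07% with compression higher), and its change was 0.35 ± 0.17 (adjusted p = 0.44). Without compression replicate 4 it was 0.21 (adjusted p = 0.762). Next by p were Egln3 (0.21 ± 0.17), Aldoa (0.24 ± 0.21), Egln1 (0.090 ± 0.077) and Pfkfb4 (0.12 ± 0.11), with adjusted p from 0.611 to 0.645. In Egln3, compression replicates 2, 3 and 4 (46.9, 48.2 and 48.5 CPM) lay above all controls and replicate 1 did not. Of these, replicates 2 and 3 are the ones numbered alike. For Aldoa, compression replicate 4 was the highest and replicate 1 lay among the controls.

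For the transporters the change was 0.21 (95% interval -0.21 to 0.63) for Slc2a1 and 0.11 (-0.26 to 0.48) for Slc16a3. In both genes compression replicate 4 was the highest Day 2 library, and without it the Slc16a3 change was -0.077 and that of Slc2a1 0.092. For Pdk1 the change was -0.035 (-0.22 to 0.15) and for Pfkfb3 -0.010 (-0.30 to 0.28).

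Genes of the pathway outside the list were counted in the same fits, from lists chosen with results of these data known. Of 14 genes for HIF subunits and their regulators, 1 rose and 4 fell in controls and 1 rose and 5 fell under compression (35.7% and 42.9% called, against 40.2% and 49.1% of all genes). The riser was Epas1, the HIF alpha subunit prominent in endothelium and other lung cells, from 11.4 ± 5.27 CPM at Day 0 to 27.4 ± 6.31 CPM in controls and 37.6 ± 7.11 CPM under compression, by 1.23 and 1.70 (adjusted p = 0.00365 and 0.000302). Arnt2 fell by 0.49 and by 0.63, and Hif3a, whose product can dampen HIF activity, fell by 0.54 and by 0.57. Hif1a itself stood at 244 ± 20.2, 231 ± 17.6 and 216 ± 14.9 CPM, with adjusted p = 0.445 in controls and 0.0685 under compression. HIF alpha subunits are controlled mainly as proteins, which these data do not measure.

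Of 29 hypoxia response genes outside the list (30 listed, of which Ak3l1 is no symbol of the table), 13 rose and 2 fell in controls and 17 rose and 2 fell under compression (51.7% and 65.5% called, against 40.2% and 49.1% of all genes), with medians of 0.27 and 0.31. Among them Lox, a crosslinker of collagen, rose from 227 ± 24.4 CPM to 484 ± 43.5 CPM in controls and 539 ± 74.0 CPM under compression, by 1.09 and 1.25 (adjusted p = 4.91e-06 and 1.26e-06), and Kdm4c and Insig2 rose by 0.48 and 0.40 in controls. Stc1, the secreted glycoprotein stanniocalcin, fell by 0.87 and by 0.71. Vegfa, a HIF target and the factor named in the study's title, stood at 467, 424, 249.8 and 296 CPM at Day 0, 456, 479.7, 473 and 438 CPM in controls and 408, 399.9, 414 and 417 CPM under compression. It had the Day 0 order of the listed genes. Its change in controls was 0.36 (adjusted p = 0.0705), and it passed without Day 0 library 1 (adjusted p = 0.0122) or 2 (0.0428). Without library 3 or 4 the adjusted p was 0.185 or 0.191. Against Day 0 libraries 1 and 2 alone the change in controls was 0.038 (adjusted p = 0.686), and against 3 and 4 alone 0.74 (adjusted p = 8.13e-05). Under compression the change of Vegfa was 0.19 (adjusted p = 0.311) against Day 0, and that between Day 2 groups was -0.17 (adjusted p = 0.633).

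The share of all genes called, for comparison with the lists that follow, was 40.2% in controls and 49.1% under compression. Among 16 other isozymes and lactate genes that passed the filter (of 22 listed), 6 rose and 2 fell in each comparison with Day 0 (50% called), among them Eno3, muscle enolase (0.70 and 0.63), and Slc16a7, the lactate carrier MCT2 (0.61 and 0.59). Of 14 glycogen genes (15 listed), 6 rose and 2 fell in controls and 6 rose and 1 fell under compression (57.1% and 50%), led by the glycogen phosphorylase of liver, Pygl (0.74 and 0.73). Of 29 genes of pyruvate entry and the tricarboxylic acid cycle, 4 rose and 2 fell in controls and 6 rose and 3 fell under compression, and these shares of 20.7% and 31.0% were below those of all genes. Pdk4, a relative of Pdk1, rose from 1.30 ± 0.226 CPM to 4.46 ± 2.19 CPM in controls and 4.07 ± 0.805 CPM under compression. Of 38 nuclear genes for oxidative phosphorylation, 6 rose and 5 fell in controls and 9 rose and 3 fell under compression (28.9% and 31.6%, also below all genes), and their median log2 changes were -0.0020 and 0.081. Of 9 genes of the pentose phosphate pathway, 3 rose and 1 (Pgd) fell in both comparisons (44.4%). Among 16 genes of the integrated stress response, which include Vldlr, 9 rose in controls (56.2%) and 6 under compression (37.5%), and none fell. Both shares were above those of all genes that rose, 22.6% and 26.6%. Counted in either direction, the share called was above all genes in controls and below them under compression. The genes that rose include Nupr1 (3.02 and 3.06) and Sesn2 (0.86 and 0.88). No list of other pathway genes held a call between the Day 2 groups.

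Markers of other cell types were counted over the same 2 days. Of all genes, 22.6% rose and 17.6% fell in controls, and 26.6% rose and 22.5% fell under compression. All 8 endothelial markers fell in both comparisons, and their summed level was 269 to 450.2 CPM at Day 0, 47.8 to 94.4 CPM in controls and 65.5 to 82.6 CPM under compression. Red blood cell markers summed to 1077 to 2245 CPM at Day 0, 114 to 197 CPM in controls and 116 to 214 CPM under compression. Of the 10, Hba-a1, Hba-a2, Hbb-bs and Hbb-bt were at 0 in all libraries. In lung epithelium 5 of 9 markers rose and 2 fell in both comparisons, with sums of 1202 to 1463 CPM at Day 0, 1978 to 2224 CPM in controls and 2249 to 2817 CPM under compression. Of 8 macrophage and leukocyte markers 4 rose in controls and 7 under compression, with sums of 124 to 142 CPM at Day 0, 166 to 349 CPM in controls and 279.6 to 387 CPM under compression. Endothelial markers were lower in libraries 1 and 2 (269 and 296 CPM) than in 3 and 4 (339 and 450 CPM), and so were the sums of macrophage (124 and 129 against 133 and 142 CPM), lung epithelium (1202 and 1230 against 1401 and 1463 CPM), lung mesenchyme (2252 and 2519 against 2826 and 2739 CPM), cartilage and liver markers, 6 of the 11 cell type lists. No cell type list had the opposite order. The part of changed cell proportions in the levels of the 37 genes was not tested.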

How the data were processed

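The values are raw counts of reads assigned to gene symbols, as the authors deposited them, in 1 table with a column for each of the 12 libraries. Per the submitters' processing notes they used fastp, STAR and mm10, with no versions given. How reads were assigned to genes, whether strand was used and how reads with several mappings were treated was not found in the labels or the file, so near-identical copies and overlapping genes are uncertain.

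Groups came from the sample labels. The counts were fitted with edgeR 4.0.16 and limma 3.58.1 under R 4.3.3: genes were kept by filterByExpr (min.count 10, min.total.count 15), libraries were TMM-scaled, and 1 robust quasi-likelihood fit held all 12 libraries with the group as its term. P-values were adjusted over the 15246 genes tested (Benjamini-Hochberg) and called under 0.05. Standard errors and 95% intervals come from the same fit. With 13979871 to 33249761 counts per library, 3 counts, the upper limit that a count of 0 allows, correspond to 0.0899 to 0.214 CPM, which covers counting error only. The fitting script was tested on simulated data.

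Coordinates and exon lengths (GENCODE vM21, GRCm38) matched all 37 symbols. Promoters are from RefSeq (GRCm38.p6), in which Ndrg1 was not matched. Levels per length are CPM per kilobase of merged exon, over all annotated transcripts of a gene and not the transcripts present.

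The 37 genes, the lists of other pathway genes and markers, and the rules for genes named were chosen with earlier results of these data known, so that counts over them are descriptions. All 37 genes are given. Values of every library are given for called changes of at least 2-fold, for the 6 smallest p in compression against control, for the 4 highest levels per length and for single transporters, sensors and regulators, and, beyond that rule, where the Day 0 libraries divide. Of other lists, up to 4 genes with the smallest p are named, with Vegfa and Hif1a added for their role.

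Alternatives were DESeq2 1.42.0, RLE factors, no filter on low counts, only the 8 libraries compared, the replicate number as a block, Rn45s left out, compression replicates 2 and 3 summed, and each library left out in turn. Leaving out Day 0 libraries 1 and 2 or 3 and 4 was added after seeing that the listed genes divided that way.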

Additional observations from a re-analysis of the deposited data

Results flagged for a closer look

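In each group of 4 libraries the highest and the lowest value were compared with the rest, and 3 of 111 groups (37 genes in 3 groups) held a value far from the others, 2.7%, where chance gives about 1 in 20. Pfkp, the platelet phosphofructokinase, stood at 38.4 CPM in compression replicate 1, below the 50.1 to 51.6 CPM of the other compression libraries. Aldoc stood at 25.8 CPM in control replicate 2, above the 20.6 to 21.2 CPM of the other controls. Ddit4, which encodes REDD1, stood at 181 CPM in compression replicate 4, above the 137 to 141 CPM of the other compression libraries. The calls of Pfkp and Aldoc held without these libraries.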

How the results depend on the processing

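The members that kept their direction and call under every alternative are named with the first counts above, and no called member changed sign. Under DESeq2, RLE factors, no filter, only the libraries compared, Rn45s left out and compression replicates 2 and 3 summed, 12 to 16 members rose and 4 to 6 fell in controls, and 18 rose and 2 or 3 fell under compression. When single libraries were left out, 9 to 16 rose and 3 to 8 fell in controls, and 16 to 19 rose and 2 to 4 fell under compression. With Day 0 libraries 1 and 2 left out, 20 rose and 3 fell in controls, and with 3 and 4 left out 7 rose and 9 fell in controls and 9 rose and 8 fell under compression. Changes of members or Vegfa that were not called with all libraries and turned sign with libraries 1 and 2 left out were, in controls, Pgam1 (0.24), Egln3 (0.10), Adm (0.59), Ddit4 (0.26) and Kdm3a (0.15), and, under compression, Slc2a1 (0.22), Pfkm (0.010), Egln3 (0.31), Adm (0.86), Ddit4 (0.24), Kdm3a (0.049) and Mxi1 (0.051). With libraries 3 and 4 left out they were, in controls, Slc16a3 (-0.19), Gapdh (-0.12), Pkm (-0.16), Gbe1 (-0.11), Egln1 (-0.024) and Ndrg1 (-0.065), and, under compression, Slc16a3 (-0.081), Gapdh (-0.048), Pgam1 (-0.16), Pkm (-0.14), Gbe1 (-0.10), Higd1a (-0.037) and Vegfa (-0.14). Log2 changes whose sign turned when 1 library was left out ranged, in controls against Day 0, for Slc16a3 from -0.071 to 0.11, Pgam1 from -0.10 to 0.074, Pkm from -0.019 to 0.17, Gbe1 from -0.030 to 0.093 and Kdm3a from -0.10 to 0.059. Log2 changes whose sign turned when 1 library was left out ranged, in compression against Day 0, for Slc16a3 from -0.060 to 0.22, Pgam1 from -0.018 to 0.16, Gbe1 from -0.024 to 0.10, Egln3 from -0.27 to 0.025, Adm from -0.47 to 0.13 and Mxi1 from -0.091 to 0.010. Log2 changes whose sign turned when 1 library was left out ranged, in compression against control, for Slc16a3 from -0.077 to 0.20, Pfkfb3 from -0.040 to 0.031 and Pdk1 from -0.11 to 0.016. The causes were not tested. Replicate numbers were not treated as pairing the libraries: deviations of libraries with the same number correlated at -0.181 to 0.166, and not every library correlated best with its own number. With the replicate number as a block, 14 members rose and 4 fell in controls, 18 rose and 2 fell under compression and none differed between the Day 2 groups, and the change of Pgam1 in controls was 0.0028. Ankrd37 lost its call under the block (adjusted p = 0.0647 and 0.0819). No member was called between the Day 2 groups under any alternative, while genes called in all numbered 0 to 71 (71 with DESeq2, 53 without control replicate 4, 19 without compression replicate 1, 4 with only the 8 libraries compared). Depth limits chiefly Eno1, with 4 to 19 counts per library, and Car9 at Day 0.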

Other observations

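Other marker lists were also compared with Day 0, and none held a call between the Day 2 groups. Of all genes, 22.6% rose and 17.6% fell in controls, and 26.6% rose and 22.5% fell under compression. Mesothelial markers, of the layer that covers the lung, summed to 91.3 to 111 CPM at Day 0, 182 to 237 CPM in controls and 201 to 217 CPM under compression, and 4 of 6 rose in controls and 3 under compression. Cartilage markers, of the forming airway rings, summed to 431 to 504 CPM at Day 0, 295 to 368 CPM in controls and 308 to 392 CPM under compression, and 4 of 6 tested fell in controls and 5 under compression. Of 7 mesenchymal markers none rose, and 5 fell in controls and 4 under compression. Neuronal and glial markers rose for 2 of 7 tested in controls (28.6%, near the share of all genes) and 3 under compression (42.9%). Skeletal muscle markers stayed low, at sums of 24.7 to 70.0 CPM over all libraries, and 3 of 4 tested rose in controls and 2 under compression. Heart muscle markers stayed low as well, at sums of 16.7 to 87.2 CPM over all libraries. Of 5 heart muscle markers tested, 1 rose in each comparison (20%), below the share of all genes that rose. Of 10 liver markers, 4 were tested, of which Alb and Trf rose in controls and Trf under compression, and Alb stood at 637.7 CPM in control replicate 4.

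Proliferation genes were counted in the same way. The share of all genes called was 40.2% in controls and 49.1% under compression, and 17.6% and 22.5% fell. Of 12 S phase genes 4 fell in controls and 6 under compression and none rose, with sums of 1715 to 1930 CPM at Day 0, 1598 to 1825 CPM in controls and 1501 to 1614 CPM under compression. Of 12 mitosis genes 1 rose in each comparison, and 1 fell in controls and 3 under compression. At Day 0 the S phase sums of libraries 1 and 2 (1930 and 1840 CPM) were above those of 3 and 4 (1763 and 1715 CPM), the same order as most of the 37 genes. The mitosis sums did not have that order (3265 and 2869 CPM in libraries 1 and 2, 3274 and 3259 CPM in 3 and 4).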
